A study of Homo sapiens with 4 samples.

Results

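The expression of 10 genes for ETS transcription factors was measured in LM2-4175 and MDA-MB-231 cells. These genes are ETS1, ETS2, ETV1, ETV3, ETV4, ETV5, ELF3, ELK3, FLI1 and SPDEF, and each was found by its symbol in exactly 1 of the 57815 gene rows that the authors deposited. MDA-MB-231 is a human triple-negative breast cancer cell line, and LM2-4175 is a line of the same origin that metastasizes strongly to the lung. Both were grown untreated in the same serum-containing medium, and each line stands for its phenotype alone. Total RNA was sequenced from 2 libraries of each cell line, 4 in all, and the authors combined the libraries of a line into 1 FPKM (fragments counted per kilobase, corrected for library size) with a lower and an upper bound. No value per library was examined, so no SD, no p-value and no replicate check stands behind any difference below.

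ETS factors share a winged helix-turn-helix DNA-binding domain, the ETS domain, whose recognition helix reads the core letters GGAA of a target site. What a factor does depends on its subfamily. ETS1 and the PEA3 factors (ETV1, ETV4 and ETV5) carry out transcriptional responses to MAP kinase signalling, and in carcinoma they are linked to invasion and to the expression of matrix proteases. ELK3 is a ternary complex factor that works with serum response factor, ETV3 is a repressor, FLI1 is known from blood and endothelium, and ELF3 and SPDEF belong to epithelial cells, SPDEF above all to luminal and secretory ones.

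The likeness of the family was visible in the 42 bases that code for the recognition helix. They are shown for the 10 genes because the reads of near-identical genes can be assigned to the wrong member. They were read 5′ to 3′ from the canonical GENCODE 44 transcripts on GRCh37, and capitals mark the codons of the 2 conserved arginines that contact GGAA.
ETS1: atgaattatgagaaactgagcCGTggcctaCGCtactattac
ETS2: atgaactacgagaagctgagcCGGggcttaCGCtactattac
ETV1: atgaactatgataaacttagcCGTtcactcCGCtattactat
ETV4: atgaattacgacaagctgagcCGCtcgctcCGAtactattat
ETV5: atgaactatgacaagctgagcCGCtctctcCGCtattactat
ELK3: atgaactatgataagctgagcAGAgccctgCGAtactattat
ETV3: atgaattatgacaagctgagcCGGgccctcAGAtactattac
FLI1: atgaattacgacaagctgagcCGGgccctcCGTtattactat
ELF3: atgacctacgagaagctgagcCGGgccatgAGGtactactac
SPDEF: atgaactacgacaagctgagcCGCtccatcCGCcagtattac

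Compared with ETS1, the stretch differed at 5 bases in ETS2, at 7 in ETV3, at 9 in ELK3 and at 10 or 11 in the other 6 genes, SPDEF included. Over the 45 pairs of genes the differences ran from 5 to 14 bases. The longest run of identical bases anywhere in the transcripts of a pair was 33 bases, for ETV4 and ETV5, with a median of 15 bases. As the reads were 150 bases long, no pair of these transcripts has a shared run as long as a read.

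A difference was called where the mean FPKM of the cell lines was at least 0.5, FPKM + 1 changed 1.5-fold or more, and the ranges between the authors' bounds were apart. Of 13911 genes that passed the filter on low values, 9.27% were called by this rule, 4.67% higher and 4.61% lower in LM2-4175. Of the 10 ETS genes, 9 passed the filter and FLI1 did not. SPDEF was called lower, and none of the other 8 was called in either direction. A single call among 9 genes is 11.1%, close to the share of all genes. By FPKM alone, 5 of the 9 genes were higher and 4 were lower in LM2-4175. Their median log2 fold change was 0.12 against -0.04 for all genes tested, and their median change in either direction was 0.48 against 0.28. These medians ignore the bounds, which overlapped for all of the 9 genes but SPDEF. By the fold without the bounds, 2 of the 9 genes passed, where 22.1% of all genes did.

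**Figure D1:**
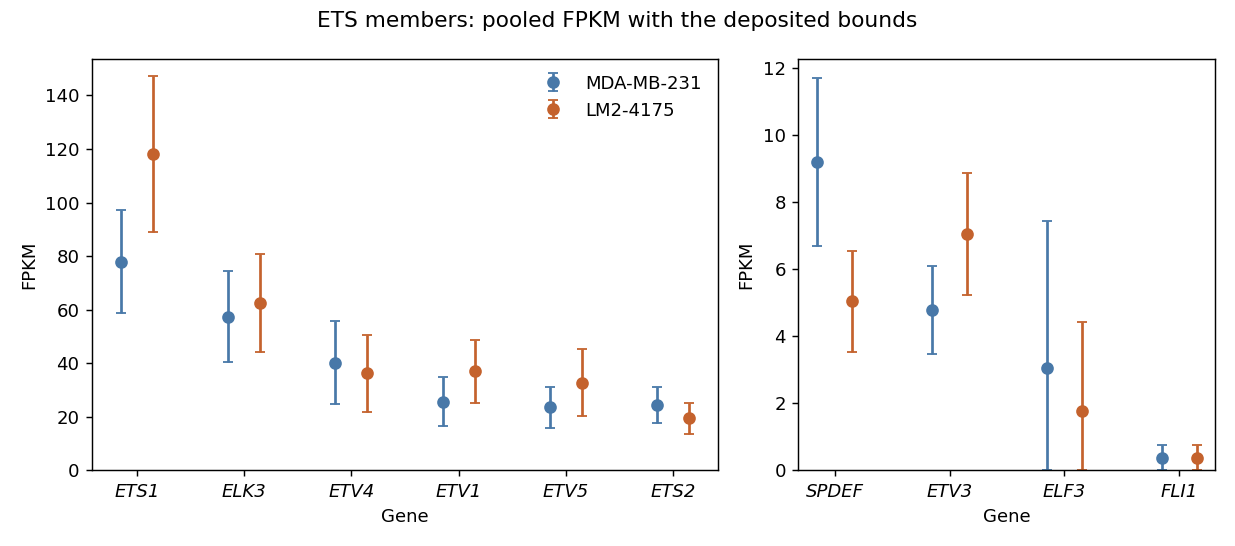
FPKM of the 10 ETS genes in MDA-MB-231 (blue) and LM2-4175 (orange), on linear axes with the higher genes on the left and the lower genes on the right. Points are the pooled value of 2 libraries and bars the deposited bounds, which are apart for SPDEF and overlap for the other 9 genes.

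ETS1, the founding member of the family, had the highest value of the ETS genes in both cell lines, although in MDA-MB-231 its bounds overlapped those of ELK1, the next gene of the family, and of ELK3. MDA-MB-231 gave 77.9 FPKM between authors' bounds of 58.7 and 97.1, whereas LM2-4175 gave 118 FPKM between bounds of 89.1 and 147. The ratio of LM2-4175 to MDA-MB-231 was 1.52, and the bounds allowed ratios from 0.917 to 2.51. Its log2 fold change of 0.59 passed the 1.5-fold limit, yet the bounds overlapped by 8.02 FPKM, and ETS1 was not called. Overlapping bounds do not show that a gene is unchanged. The authors tested the libraries with Cuffdiff, a different rule that was not repeated here. Their paper names ETS1 among the factors predicted, from shared target genes, to interact with multiple others in LM2-4175. The motif analysis of the paper kept to factors that changed in expression by its own rule. The authors may therefore have counted ETS1 as changed, unlike the rule used here. By the fold without the bounds, which 22.1% of all genes passed, ETS1 and SPDEF were the genes called among the 10. Among all genes tested, ETS1 stood at percentile 89.8 in MDA-MB-231 and 94.4 in LM2-4175. The gene (ENSG00000134954) is on the minus strand of chromosome 11 (GRCh37), 128328656 to 128457453, and its exons are free of overlap with other genes.

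ETS2, the closest relative of ETS1, was less abundant and had its lower value in LM2-4175. It had 24.5 FPKM (bounds 17.8 and 31.1) in MDA-MB-231 against 19.3 FPKM (bounds 13.6 and 25.0) in LM2-4175, for a log2 fold change of -0.32 with overlapping bounds. The level of ETS1 was 3.19 times that of ETS2 in MDA-MB-231 and 6.11 times in LM2-4175. The bounds allowed 1.89 to 5.46 times for the former and 3.56 to 10.8 times for the latter, and as these ranges overlap, the cell lines were not told apart by this ratio. ETS2 (ENSG00000157557) lies on chromosome 21 from 40177107 to 40196879 on the plus strand.

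The PEA3 factors had levels that overlapped within each cell line, and none of the 3 was called. ETV1 had 25.6 FPKM (bounds 16.3 and 34.9) in MDA-MB-231 against 36.9 FPKM (bounds 25.2 and 48.6) in LM2-4175, for a log2 fold change of 0.51. ETV5 had 23.5 FPKM (bounds 15.8 and 31.2) against 32.7 FPKM (bounds 20.1 and 45.3), for a log2 fold change of 0.46. ETV4, which was itself called PEA3 when first described, had 40.2 FPKM (bounds 24.7 and 55.7) against 36.2 FPKM (bounds 21.8 and 50.5), for a log2 fold change of -0.15. All 3 changes were under 1.5-fold with overlapping bounds. In MDA-MB-231 the order was ETV4, ETV1, ETV5, whereas in LM2-4175 ETV1 and ETV4 stood side by side at 1.02 to 1. Within a cell line the bounds of the 3 genes overlapped, so neither order is larger than the authors' error. The FPKM of the PEA3 factors came to a sum of 106 in LM2-4175, against 89.3 in MDA-MB-231.

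Of the PEA3 genes, ETV4 and ETV5 share exon bases with another gene and ETV1 does not. ETV1 (ENSG00000006468) occupies 13930854 to 14031050 of chromosome 7, minus strand. ETV4 (ENSG00000175832) lies at 41605212 to 41656988 of chromosome 17, minus strand, and exons of DHX8 on the opposite strand cover 1.93% of its exon bases. ETV5 (ENSG00000244405) lies at 185764103 to 185828107 of chromosome 3, minus strand, and exons of DGKG on the same strand cover 2.84%. For ETV4 and ETV5 the deposited locus was longer than the gene, 126474 against 51777 bases and 315930 against 64005 bases. The same was seen for ELF3, with 34817 against 9239 bases, and for FLI1, with 183615 against 126733 bases.

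ELK3, a ternary complex factor, ranked second of the 10 genes in both lines and was close to level between them. It had 57.4 FPKM (bounds 40.5 and 74.3) in MDA-MB-231 against 62.3 FPKM (bounds 44.04 and 80.6) in LM2-4175, for a log2 fold change of 0.12. In MDA-MB-231 the bounds of ETS1 and ELK3 overlapped, and in LM2-4175 they were apart. ELK3 (ENSG00000111145) lies on chromosome 12 from 96588153 to 96663602 on the plus strand, with 4.50% of its exon bases under exons of an antisense gene. The other ternary complex factors are ELK1 and ELK4, which are not among the 10 genes. ELK1 had 65.4 FPKM (bounds 40.8 and 89.9) against 43.6 FPKM (bounds 27.4 and 59.9), and ELK4 had 10.3 and 10.2 FPKM.

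SPDEF, a factor of luminal and secretory epithelium, was the 1 gene of the 10 that differed by the rule, and it was lower in LM2-4175. MDA-MB-231 gave 9.20 FPKM between bounds of 6.69 and 11.7, whereas LM2-4175 gave 5.04 FPKM between bounds of 3.53 and 6.55. The gap between the bounds was 0.137 FPKM, so the call was a narrow one. SPDEF fell by 0.75 on the log2 scale of FPKM + 1, a ratio of 0.548, and the bounds allowed ratios from 0.302 to 0.980. It was rank 7 of the 10 genes in MDA-MB-231 and rank 8 in LM2-4175, where ETV3 stood above it with overlapping bounds. The call was lost when the FPKM of both lines were scaled to the same sum, as TPM, by which 9.22% of all genes were called, and also with a 2-fold limit, by which 6.13% were called. SPDEF (ENSG00000124664) lies on chromosome 6 from 34505579 to 34524110 on the minus strand, and no exon of another gene overlaps it.

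The promoter of SPDEF is shown because it is the gene that was called. It is the RefSeq window from 250 bases before to 50 bases after the start, chr6:34556280-34556579 on the minus strand of GRCh38.p14, a later build than that of the deposited table. Capitals mark GGAA or its reverse complement TTCC.
SPDEF promoter: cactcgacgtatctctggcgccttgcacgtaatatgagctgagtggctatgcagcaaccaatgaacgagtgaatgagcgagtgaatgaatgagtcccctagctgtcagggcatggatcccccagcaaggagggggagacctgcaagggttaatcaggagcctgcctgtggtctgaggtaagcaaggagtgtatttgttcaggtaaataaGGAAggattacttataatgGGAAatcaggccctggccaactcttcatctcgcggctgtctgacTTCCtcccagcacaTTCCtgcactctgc

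Within these 300 bases GGAA was found 4 times on both strands together. At least 1 match is held by 95.5% of 27305 promoters of the same length, with a median of 3, so the core letters alone do not set this window apart. The longer string CCGGAAG, searched on both strands and containing GGAA, is held by 10.7% of all promoters and was not found in that of SPDEF. Another longer string, AGGAAG, is held by 33.7% of all promoters, with a median of 0, and was found 2 times in that of SPDEF. Of the 10 ETS genes, 6 were matched to a promoter, namely ETS2, ETV1, ELK3, ETV3, ELF3 and SPDEF. They held GGAA 2 to 5 times, and none held CCGGAAG. Besides SPDEF, the promoters of ETV1, ELK3 and ETV3 held AGGAAG 1 time each, and those of ETS2 and ELF3 did not hold it.

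Other epithelial genes were measured beside SPDEF. Of 5 luminal markers, 4 passed the filter and 2 of them were called lower in LM2-4175, where 4.61% of all genes were. AGR2, a secretory protein of luminal cells, fell from 24.9 FPKM (bounds 16.9 and 32.97) to 1.71 FPKM (bounds 0.791 and 2.63), and KRT19, a simple-epithelial keratin, fell from 250.3 FPKM (bounds 191 and 310.0) to 36.3 FPKM (bounds 27.6 and 45.1). GATA3 was at 3.10 and 2.42 FPKM and XBP1 at 35.8 and 48.4 FPKM, neither of them called, and FOXA1 was under the filter at 0.0871 and 0.440 FPKM. The summed FPKM of the luminal list was 314 (MDA-MB-231) and 89.2 (LM2-4175), and that of the 3 genes other than KRT19 and AGR2 was 38.9 and 51.2. The simple-epithelial keratins KRT8 (626 and 180.2 FPKM) and KRT18 (448 and 181 FPKM) and the adhesion molecule EPCAM (12.3 and 4.93 FPKM) were also called lower. They are the 3 genes called of 6 tested in a list of 8 breast markers. The epithelial cadherin gene CDH1 of that list was not called (0.851 and 0.366 FPKM). The part of these epithelial genes in the difference of SPDEF was not tested. Fewer cells of an epithelial kind cannot be told apart from less RNA per cell.

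ELF3, another epithelial ETS gene, could not be placed. It was listed at 3.04 FPKM in MDA-MB-231 against 1.78 FPKM in LM2-4175, for a log2 fold change of -0.54, but both lower bounds were 0 and the upper bounds were 7.43 and 4.42 FPKM. The upper bound lay 144% (MDA-MB-231) and 148% (LM2-4175) above the value, against a median of 38.6% and 38.1% over all genes tested. ELF3 (ENSG00000163435) lies on chromosome 1 from 201977073 to 201986311 on the plus strand, and 18.5% of its exon bases lie under exons of other genes, among them ELF3-AS1 on the opposite strand. Of the 10 genes, this was the largest overlap. EHF, the nearest relative of ELF3 expressed in these lines, had 20.5 FPKM (bounds 10.6 and 30.5) against 28.1 FPKM (bounds 17.8 and 38.5), by the bounds at least 1.43 times the level of ELF3 in MDA-MB-231 and at least 4.02 times in LM2-4175. Of the 3 epithelial ETS genes EHF, ELF3 and SPDEF, SPDEF alone was called.

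ETV3, a repressor of the ETS family, was a low but well-measured gene. It had 4.78 FPKM (bounds 3.48 and 6.08) in MDA-MB-231 against 7.05 FPKM (bounds 5.22 and 8.88) in LM2-4175, for a log2 fold change of 0.48 with bounds that overlapped by 0.865 FPKM. ETV3 (ENSG00000117036) lies on chromosome 1 from 157090983 to 157108266 on the minus strand, with no exon overlap. ERF, the related repressor, reached 24.7 FPKM (bounds 10.3 and 39.1) in LM2-4175, a ratio of 1.24 to MDA-MB-231.

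FLI1, the ETS gene of blood and endothelial cells, was close to the lower limit of the table in both lines. It was listed at 0.368 FPKM (bounds 0 and 0.745) in MDA-MB-231 against 0.368 FPKM (bounds 0 and 0.739) in LM2-4175, and no change can be read from values whose bounds reach 0. FLI1 (ENSG00000151702) lies on chromosome 11 from 128556430 to 128683162 on the plus strand, 99.0 kb beyond the end of ETS1, so these neighbours stood at opposite ends of the order of the 10 genes. Of the white blood cell markers, CD3E was listed at 0 in both lines, PTPRC and CD79A were under the filter, and CD14 had 1.17 and 1.75 FPKM without a call. The summed FPKM of these 4 genes was 1.51 (MDA-MB-231) and 1.86 (LM2-4175). Of the endothelial markers, PECAM1 was not found by its symbol, and CDH5, TEK and VWF were under 0.1 FPKM in both lines. KDR rose from 0.971 FPKM (bounds 0.634 and 1.31) to 2.48 FPKM (bounds 1.78 and 3.19). It was called higher, where 4.67% of all genes were.

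In the order of the 10 genes, ETS1 came first and FLI1 last in both cell lines. The levels formed steps. In MDA-MB-231, ETS1 was apart by its bounds from every gene but ELK3, and ELK3 was apart from all lower genes but ETV4. ETV4, ETV1, ETS2 and ETV5 overlapped among themselves, and each of these 4 was apart from SPDEF, ETV3, ELF3 and FLI1. In LM2-4175, ETS1 was apart from all 9 others, and ELK3, ETV1, ETV4 and ETV5 overlapped. ETS2 stood at rank 5 in MDA-MB-231 and rank 6 in LM2-4175, where its bounds still overlapped those of ETV4 and ETV5 but no longer those of ETV1.

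The genes beside the 10 ETS genes were also examined, taking the 10 nearest protein-coding genes tested, 5 on each side. Of these 10, 9 were lower in LM2-4175 around ETS2, ETV3 and ELF3, 8 around ETS1, FLI1 and SPDEF, 5 around ETV4, ETV5 and ELK3, and 3 around ETV1, where 54.5% of all genes tested were lower. ETS1 and FLI1 share most of their neighbours. At most 1 of the 10 was called around each gene, except ETV1 with 2, AGR2 among them. As 9.27% of all genes were called, these counts do not set the neighbours apart. The neighbour called beside SPDEF was SNRPC, which fell by 0.74 on the log2 scale.

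The other 18 genes of the human ETS family were added to complete the picture. Of these, 11 passed the filter and none was called, where 9.27% of all genes were, so the count does not set these few genes apart. The fold without the bounds would have called ETV7 lower, whose 1.30 and 0.261 FPKM had lower bounds of 0. ELF4 had 23.5 FPKM (bounds 18.2 and 28.9) against 29.4 FPKM (bounds 22.8 and 36.0), and GABPA, the partner of GABPB1 at housekeeping promoters, had 10.5 and 8.02 FPKM. ELF1 (16.4 and 16.2 FPKM), ELF2 (13.8 and 13.9 FPKM), ETV6 (8.57 and 7.69 FPKM) and ETV2 (0.924 and 0.924 FPKM) had ratios between 0.898 and 1.01. ERG, FEV, ETV3L, ELF5, SPI1, SPIB and SPIC were under the filter, 5 of them listed at 0 in MDA-MB-231.

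**Figure D2:**
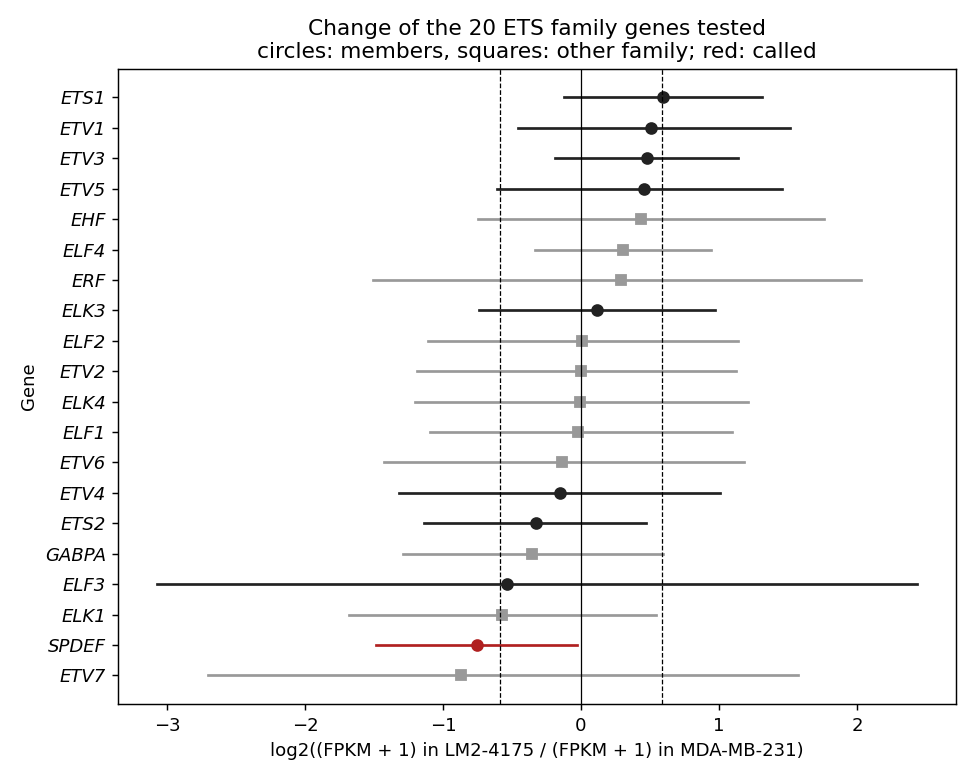
Log2 fold change of FPKM + 1 in LM2-4175 over MDA-MB-231 for the 20 ETS family genes tested, in order. Circles are the genes examined here and squares the rest of the family, bars run over the changes that the bounds allow, dashed lines mark 1.5-fold, and SPDEF (red, -0.75) is the gene whose bar does not reach 0.

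Summed over all 28 genes, the FPKM of the family reached 458 in MDA-MB-231 against 503 in LM2-4175, a ratio of 1.10. The 10 genes made 266 and 319.8 of this, a ratio of 1.20, and the other 18 made 191 and 183, a ratio of 0.957. ETS1 alone held 17.0% of the family's sum in MDA-MB-231, and the share was 23.5% in LM2-4175. By subfamily, the ternary complex factors were the most abundant in MDA-MB-231 with 29.1%, ahead of ETS1 and ETS2 with 22.4% and PEA3 with 19.5%. In LM2-4175, ETS1 and ETS2 held 27.3%, the ternary complex factors 23.1% and PEA3 21.02%. These sums carry no error of their own, and their order rests on ETS1 and ELK1, whose bounds overlapped between the lines.

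**Figure D3:**
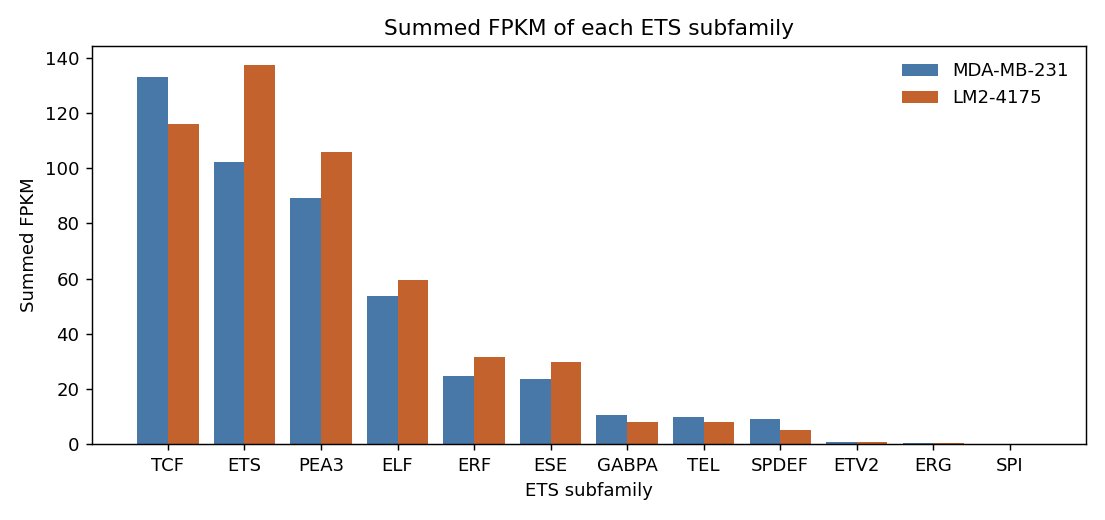
Summed FPKM of each ETS subfamily in MDA-MB-231 (blue) and LM2-4175 (orange), with bars starting at 0 and no error shown. TCF stands for ELK1, ELK3 and ELK4, ETS for ETS1 and ETS2, PEA3 for ETV1, ETV4 and ETV5, ELF for ELF1, ELF2 and ELF4, ERF for ERF, ETV3 and ETV3L, ESE for ELF3, ELF5 and EHF, TEL for ETV6 and ETV7, ERG for ERG, FLI1 and FEV, and SPI for SPI1, SPIB and SPIC.

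Genes that control or pair with ETS factors were taken as a further list. Of 16 such genes, 15 passed the filter and none was called, against 9.27% of all genes, so the count does not set the list apart. The median log2 fold change was -0.16. The values ran from -0.44 for RUNX1, which binds DNA beside ETS1, to 0.37 for FBXW7, which marks proteins for degradation. CIC, the repressor of the PEA3 genes, had 27.7 FPKM (bounds 15.5 and 39.8) against 20.8 FPKM (bounds 10.0 and 31.5). RFWD2 (COP1), a ubiquitin ligase for the PEA3 proteins, had 26.1 and 23.2 FPKM, and SRF, the DNA-binding partner of ELK3, had 42.5 and 31.2 FPKM. The MAP kinase gene MAPK3 had 39.6 and 42.8 FPKM, with bounds that overlapped.

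Among genes often described as ETS targets, MMP1, MMP9, PTGS2, VEGFA, TGFBR2, PLAUR and SPRY4 rose in LM2-4175 and FOS fell. Of 21 listed genes, 17 passed the filter, and these 8 were called, where 9.27% of all genes were. MMP9, PTGS2 and MMP3 were under 0.5 FPKM in MDA-MB-231 and passed the filter through LM2-4175 alone, and of the other 14 genes, 5 were called higher and 1 lower. With a mean of at least 1 FPKM, MMP9 was not tested and 7 genes were called. The list was written with earlier results of these libraries known, and many of its genes answer to AP-1 or NF-kB as well. The median log2 fold change of the 17 was 0.68. This is the value of MMP9, which passed the filter through LM2-4175 alone, so the median is not set against that of all genes. MMP1, an interstitial collagenase, rose from 22.7 FPKM (bounds 17.1 and 28.2) to 643 FPKM (bounds 484 and 803). VEGFA, the vascular growth factor, rose from 37.1 FPKM (bounds 24.3 and 49.8) to 243 FPKM (bounds 153 and 333).

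The receptor gene TGFBR2 rose from 47.6 FPKM (bounds 37.0 and 58.2) to 98.3 FPKM (bounds 76.1 and 121), and PLAUR, the receptor of urokinase, from 56.4 FPKM (bounds 42.9 and 69.9) to 101 FPKM (bounds 77.0 and 125). SPRY4, a feedback inhibitor of MAP kinase signalling, rose by 1.19 on the log2 scale, from 22.4 to 52.5 FPKM. PTGS2 rose by 5.01, from 0.455 to 45.97 FPKM, and MMP9, from 0.189 to 0.907 FPKM, by 0.68. FOS, an AP-1 subunit whose promoter binds ternary complex factors, was the gene called lower, from 17.6 FPKM (bounds 12.6 and 22.7) to 2.99 FPKM (bounds 1.84 and 4.14). Not called were the MAP kinase targets DUSP6 (84.1 and 98.8 FPKM), EGR1 (9.87 and 12.8 FPKM) and SPRY2 (40.4 and 32.0 FPKM) and the cyclin gene CCND1 (146 and 184 FPKM). PLAU (169 and 276 FPKM), MCL1 (95.3 and 149 FPKM) and MMP14 (141 and 215 FPKM) were past 1.5-fold with overlapping bounds, and so was the receptor gene ERBB2 in the lower direction. MMP3 was listed at 0.0241 and 4.60 FPKM with lower bounds of 0 in both lines.

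**Figure D4:**
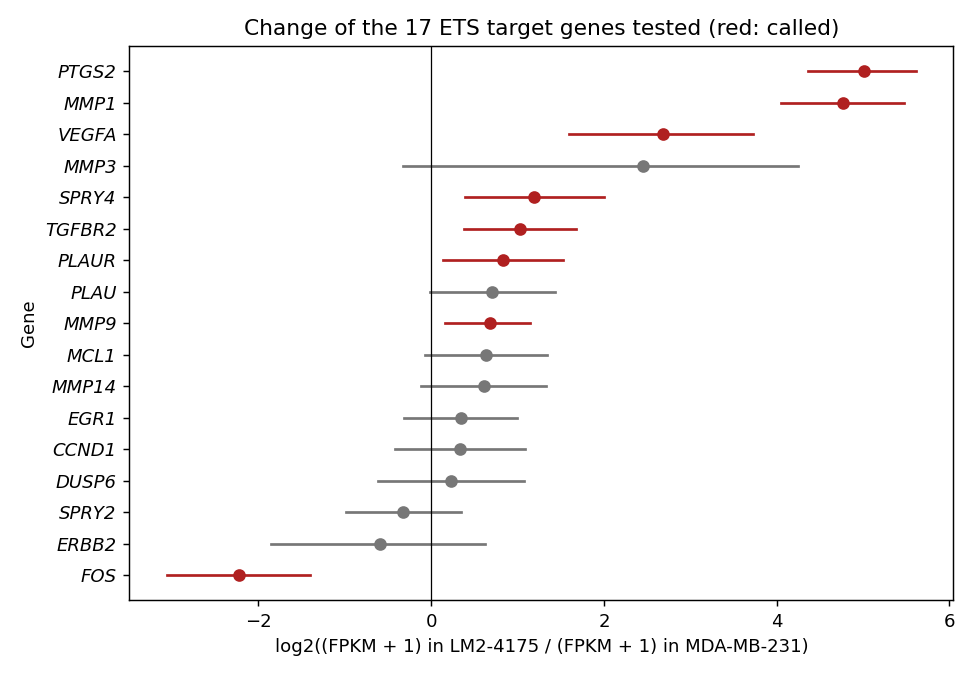
Log2 fold change of FPKM + 1 in LM2-4175 over MDA-MB-231 for the 17 ETS target genes tested, with bars over the changes that the bounds allow. The 8 genes in red were called, from FOS at -2.23 to PTGS2 at 5.01, and the bars of the genes not called include 0.

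The cell lines were checked against the markers of their label. ESR1 and PGR, the hormone receptors, were listed below 0.1 FPKM in both lines. ERBB2 was present at 35.0 and 22.8 FPKM without a call. VIM, the mesenchymal filament gene, had 1355 and 1768 FPKM, and CDH1, the epithelial cadherin gene, had 0.851 and 0.366 FPKM, neither of them called.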

How the data were processed

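RNA-Seq libraries of MDA-MB-231 and LM2-4175 (2 each) were made by the authors with the TruSeq kit. Reads were aligned to hg19 with TopHat2 and default parameters, and genes of GENCODE 19 were quantified with Cufflinks and Cuffdiff. The deposited table gives FPKM for each gene and cell line, with the libraries pooled, and bounds in the same unit. The coverage of the bounds, the library normalization and the use of strand are not given in the sources used here. The table holds no counts, so depth cannot be read from it, and precision was read from the bounds.

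Changes were computed as log2 of FPKM + 1 (pandas 2.3.3), after leaving out 8 genes with a status other than OK and genes with a mean under 0.5 FPKM. The pseudocount of 1 understates the change of low genes, and the filter leaves the lowest genes untested. Alternatives were a pseudocount of 0.1, no filter, a mean of at least 1 FPKM, TPM scaling, quantile normalization, a fold of 2, and bounds or fold alone. Named are the 10 genes, the other ETS genes and the targets above the filter, and the markers. Some of the regulators are named too, not all of them with large changes. Other genes named, such as the flanking genes called, were picked with their values known. The members and lists were chosen with earlier results of these data known. Some genes of the regulator, target and white blood cell lists are not reported here and were left out of the counts. Positions are from GENCODE 44 on GRCh37, which matched 55535 genes. The call was tested on simulated data in which the bounds were set from the simulated noise. That test cannot show how often the call errs with the authors' bounds, whose coverage is not known.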

Additional observations from a re-analysis of the deposited data

How the results depend on the processing

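With 1 pooled value per cell line, leaving out a replicate could not be run. No paired analysis was possible because the deposited columns combine the replicates of each cell line. Of the 10 ETS genes, 1 was called, SPDEF, and the count was 0 after TPM scaling and with a fold of 2, and 2 (SPDEF and ETS1) by the fold without the bounds. After TPM scaling the log2 fold change of SPDEF was -0.72 and its bounds overlapped. The fold alone called 1 of the other ETS family genes in place of 0, and 13 target genes in place of 8. By that rule 22.1% of all genes were called. The other alternatives kept each count within 1.5 times, and the regulator list had 0 calls under all 8 alternatives. In TPM, 735 genes were called higher and 547 lower. TPM scaling and quantile normalization, the alternatives that could turn a sign, turned none of the 9 genes tested, and FLI1, under the filter, was -0.00086 without the filter. The precision is limited most for ELF3 and FLI1, whose lower bounds are 0.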
